A study of Mus musculus with 8 samples.

Results

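Axon guidance in the injured spinal cord was examined through its ligands and receptors, the protein-coding genes of the deposited count table whose symbols belong to the semaphorin, plexin, neuropilin, ephrin, Eph, Slit, Robo, netrin, Unc5, Dcc and Rgm families. The rule reads gene symbols and no measured value, and finds 70 of the 54532 genes in the table. Of these, 36 encode ligands and 34 encode receptors or co-receptors. RNA-seq libraries came from 8 spinal cord samples of mice taken 7 days after spinal cord injury. The control group held 4 samples of genotype Tia1f/f, in which the Tia1 gene carries flanking target sites for Cre. The CKO group held 4 samples of genotype Tia1Nestin-CKO, a name that gives a conditional knockout driven through Nestin, which neural precursors express. Cells outside that lineage, such as infiltrating blood cells, would keep the gene, and the samples held whole tissue. Both groups were injured and no uninjured sample was analysed here, so no value below measures the effect of injury. The sources used here give neither the age and sex of the mice nor whether each sample came from a separate mouse. P-values therefore measure the spread between samples.

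Guidance molecules are surface or secreted proteins that attract or repel growing axons, and many of them also steer blood vessels, glia and immune cells. Class 3 semaphorins are secreted and signal through neuropilins paired with plexins, while class 4 to 7 semaphorins are membrane-bound and mostly bind plexins directly. Ephrin-A ligands sit on a lipid anchor and ephrin-B ligands span the membrane, and both bind Eph receptor tyrosine kinases on neighbouring cells. Slits signal through Robo receptors, netrins through Dcc and the Unc5 receptors, and repulsive guidance molecules through neogenin. In the injured cord several of them are known as barriers to regrowth, among them semaphorin 3A of the scar and semaphorin 4D and ephrin-B3 of myelin.

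Markers of the tissue were present in every list examined, and no marker in any of the 13 cell type lists had 0 counts in all libraries. Library totals ran from 14752733 to 17802884 counts, and the members took 0.160% to 0.205% of them. The library labelled control 1 had 18884 genes with counts against 22434 to 23414 in the others. There, 18.2% of the 66 members that could be tested were more than 1 log2 unit away from the other libraries' median, as were 16.5% of all 16537 genes tested. Tia1 itself, in CPM, counts per 1000000 scaled library counts, stood at 41.9, 24.4, 31.3 and 34.2 in control libraries 1 to 4 and at 23.4, 27.8, 24.0 and 32.1 in CKO libraries 1 to 4, so the groups overlapped (edgeR log2 fold change -0.29, SE 0.19, adjusted p = 1.00).

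Levels were compared between genes as the deposited FPKM, fragments normalised for gene length and library size, and 3 genes stood above the rest. They were Plxnb2, a plexin that binds class 4 semaphorins and is known in mouse microglia and macrophages of the injured cord, Efnb3, the ephrin-B3 of myelin, and Sema4d, a semaphorin of oligodendrocytes. Together they held 29.2% of the summed mean FPKM of the 70 members. Of the 70, 45 had a mean of at least 1 FPKM, 20 of at least 5 FPKM and 5 of at least 10 FPKM.

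Plxnb2 (ENSMUSG00000036606, chromosome 15, 89155549 to 89180788, minus strand, GRCm38) had 27.4, 20.7, 34.6 and 41.5 FPKM in control libraries 1 to 4 and 33.7, 31.5, 31.1 and 29.9 FPKM in CKO libraries 1 to 4. Efnb3 (ENSMUSG00000003934, chromosome 11, 69554092 to 69560205, minus strand) had 34.8, 27.3, 20.2 and 25.9 FPKM in control and 28.6, 22.5, 33.6 and 24.1 FPKM in CKO. Sema4d (ENSMUSG00000021451, chromosome 13, 51685529 to 51793747, minus strand) had 25.1, 17.0, 16.2 and 23.8 FPKM in control and 18.7, 20.1, 23.9 and 18.2 FPKM in CKO. The ranges of these 3 genes overlapped, so their order was not fixed: Plxnb2 led in 5 libraries and Efnb3 in 3. Sema4d came next in each library except that labelled control 3, where Ntn1 took its place.

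**Figure D1:**
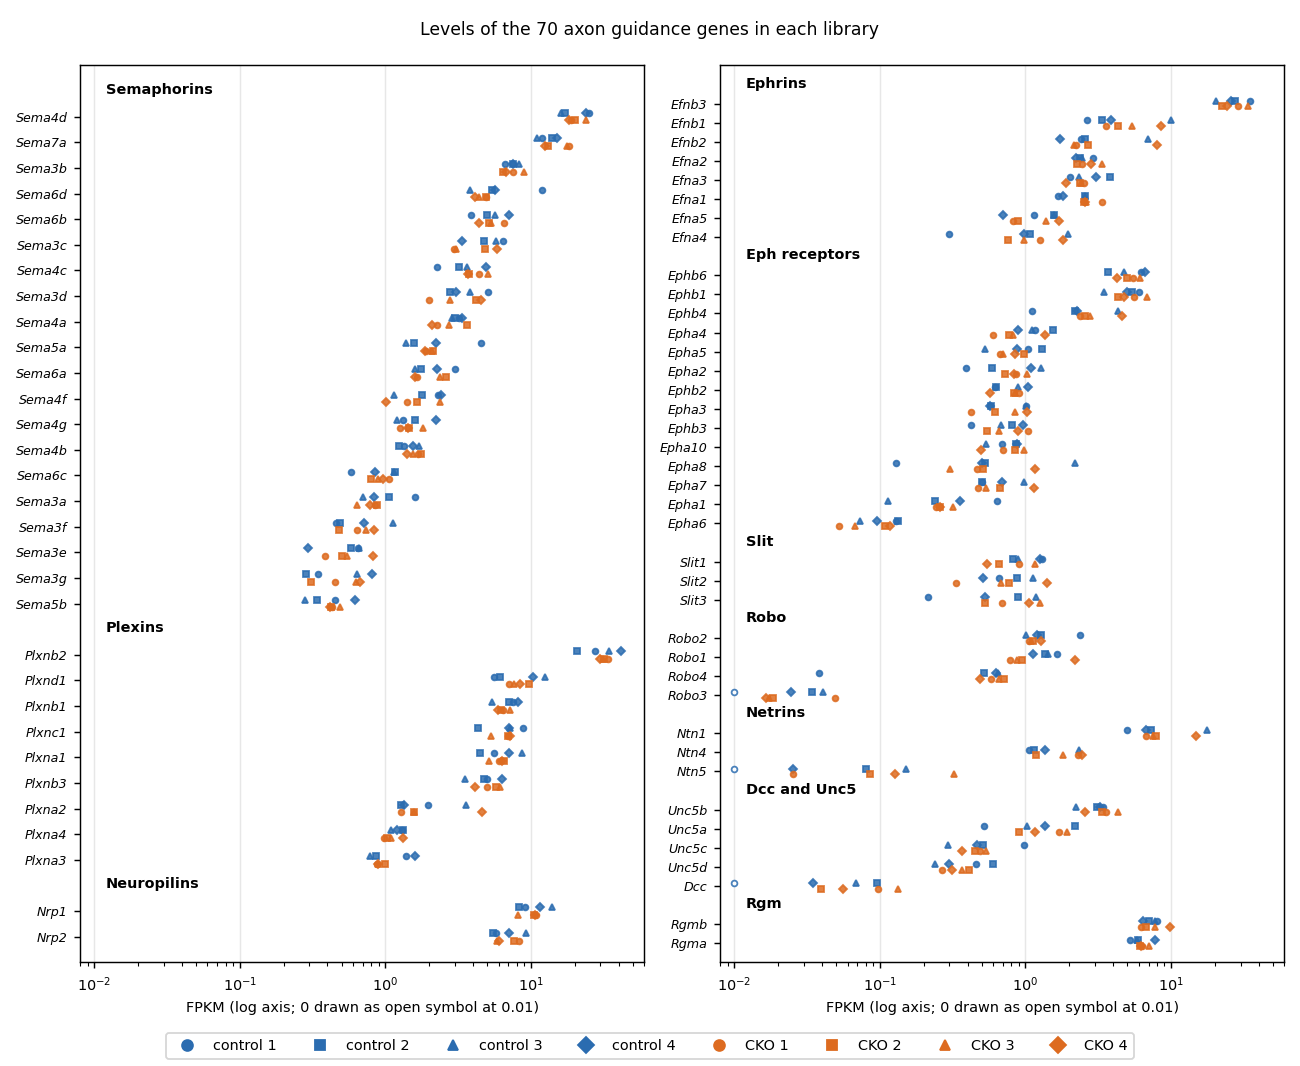
FPKM of each of the 70 members on a log axis, 1 symbol per library, with control in blue and CKO in orange and members sorted by mean level within families. Blue and orange symbols interleave in every row, and Plxnb2, Efnb3 and Sema4d stand at the right with 16.2 to 41.5 FPKM.

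Among the semaphorins, the 20 members summed to 82.2 ± 10.2 FPKM (SD, n = 4) in control and 79.9 ± 5.86 FPKM in CKO. After Sema4d came Sema7a, a lipid-anchored semaphorin that binds plexin-C1 and integrins, with 12.97 ± 1.85 FPKM in control and 15.3 ± 2.97 FPKM in CKO. The secreted Sema3b followed at 7.49 ± 0.662 and 7.40 ± 1.12 FPKM. Sema3a, the best known repellent of the lesion scar, had only 1.05 ± 0.398 FPKM in control and 0.787 ± 0.106 FPKM in CKO. The other secreted class 3 members Sema3c and Sema3d, with means over the 8 libraries of 4.62 and 3.53 FPKM, stood above Sema3a, while Sema3e, Sema3f and Sema3g had 0.555, 0.685 and 0.518 FPKM. The lowest semaphorin was Sema5b, at 0.431 FPKM.

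The receptors of semaphorins were led by class B plexins, whose 3 members summed to 43.0 ± 9.77 FPKM in control and 43.2 ± 2.28 FPKM in CKO (SD, n = 4). The 4 class A plexins, which carry class 3 signals with neuropilins and class 6 signals alone, summed to 10.9 ± 2.54 and 10.3 ± 1.99 FPKM. Nrp1, the co-receptor for Sema3a and also for a vascular growth factor, had 10.7 ± 2.51 and 10.02 ± 1.30 FPKM. Nrp2, which binds Sema3c and Sema3f, had 6.89 ± 1.68 and 6.95 ± 1.19 FPKM. Plxnd1, a receptor for Sema3e that is known in vessels, had a mean of 8.42 FPKM over the 8 libraries against 0.555 FPKM of its ligand. Plxnc1, the receptor of Sema7a, had 6.72 FPKM against 14.1 FPKM of that ligand. Plxnb1, the high-affinity receptor of Sema4d, had 6.73 FPKM, and Plxnb3, the receptor of Sema5a, had 5.07 FPKM against 2.21 FPKM of Sema5a. In each of these pairs both genes are given per length, and the values do not show in which cells they were made.

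Ephrins and Eph receptors differed in how their levels were spread. Efnb3 accounted for most of the ephrin-B sum of 35.4 ± 3.78 FPKM in control and 36.4 ± 5.54 FPKM in CKO. The 5 ephrin-A genes summed to 9.76 ± 1.61 and 10.2 ± 0.915 FPKM. Among receptors the EphB genes, at 14.2 ± 1.27 and 15.2 ± 1.66 FPKM in sum, stood above the 9 EphA genes, at 6.44 ± 0.963 and 5.69 ± 1.14 FPKM. The 2 highest were Ephb6, whose kinase is inactive, at 5.32 ± 1.33 and 5.22 ± 0.798 FPKM, and Ephb1, at 4.94 ± 1.06 and 5.37 ± 1.13 FPKM. Epha4, the receptor through which ephrin-B3 repels corticospinal axons in mice, had 1.03 FPKM over the 8 libraries, and Ephb3, another receptor of ephrin-B3, had 0.749 FPKM.

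Slit and Robo genes were low. The 3 Slit genes, secreted repellents, summed to 2.56 ± 0.453 FPKM in control and 2.49 ± 0.643 FPKM in CKO, and the 4 Robo genes to 3.35 ± 0.499 and 2.96 ± 0.678 FPKM. Robo1 and Robo2, the neuronal receptors of Slits, had similar means of 1.29 and 1.30 FPKM. Robo4, which belongs to endothelial cells, had 0.533 FPKM. Robo3, a receptor of embryonic commissural neurons, was read 0 to 6 times per library and had under 10 counts in each.

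In the netrin system the ligand was plentiful and its classic receptor had few counts. Ntn1 had 9.14 ± 5.71 FPKM in control and 9.24 ± 3.73 FPKM in CKO. Dcc (chromosome 18, 71258738 to 72351069, minus strand), which mediates attraction to netrin 1, had 0, 13, 10 and 5 raw counts in control libraries 1 to 4 and 14, 5, 18 and 8 counts in CKO libraries 1 to 4. The count of 0 in the library labelled control 1 allows up to 3 counts, or 0.209 CPM, for counting error only. The listed length of Dcc was 8067 bases, against 13171 exon bases in the GENCODE M21 annotation. Its counts may therefore leave out part of its exons. Of the Unc5 receptors, which mediate repulsion, Unc5b led with 3.00 ± 0.532 FPKM in control and 3.46 ± 0.719 FPKM in CKO, followed by Unc5a at 1.28 ± 0.702 and 1.42 ± 0.475 FPKM. Unc5c and Unc5d had means over the 8 libraries of 0.510 and 0.369 FPKM. Neo1, the neogenin receptor shared by netrins and repulsive guidance molecules, had 7.02 ± 0.750 FPKM in control and 7.80 ± 1.37 FPKM in CKO. Its ligands Rgma, a known inhibitor of axon growth in injured cord, and Rgmb stood close to it at 6.31 and 7.47 FPKM over the 8 libraries.

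No guidance gene that was tested differed between genotypes beyond the spread of the libraries. In edgeR's quasi-likelihood test with Benjamini-Hochberg adjustment over all genes tested, 0 of the 66 members tested passed an adjusted p of 0.05, where the share of all genes was 0%. At an unadjusted p under 0.05 the count of members was also 0, against 1.42% of all genes (0.496% higher and 0.919% lower in CKO). DESeq2 and limma-voom likewise gave 0 members at either threshold. DESeq2's adjusted p called 0.00346% of the genes it fitted. The unadjusted p was under 0.05 for 1.61% of all genes with DESeq2 and for 1.2% with limma-voom. Without the library labelled control 3, 5 of 68 members had an unadjusted p under 0.05, where 6.56% of all genes tested in that fit did. They were Sema3a and Sema6d, lower, and Ephb4, Efnb1 and Ntn4, higher in CKO, each with an adjusted p = 0.757. Without that labelled CKO 4 there were 2 of 67 (Epha4 and Robo1, both lower, adjusted p = 1.00), against 1.31% of all genes. The groups overlapped for all 70 members, where 1.19% of all genes tested did not overlap. Of the 66, 29 had a higher and 37 a lower fitted mean in CKO, where 48.1% of all genes tested were higher. Their median log2 fold change was -0.02, beside -0.01 over all genes tested. The median half-width of the 95% intervals was 0.58 log2 units, and for 50 of the 66 the interval lay within 2-fold in both directions. For the other 16 a 2-fold difference lay inside the interval, and 4 members (Dcc, Epha6, Ntn5 and Robo3) were too low to test.

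**Figure D2:**
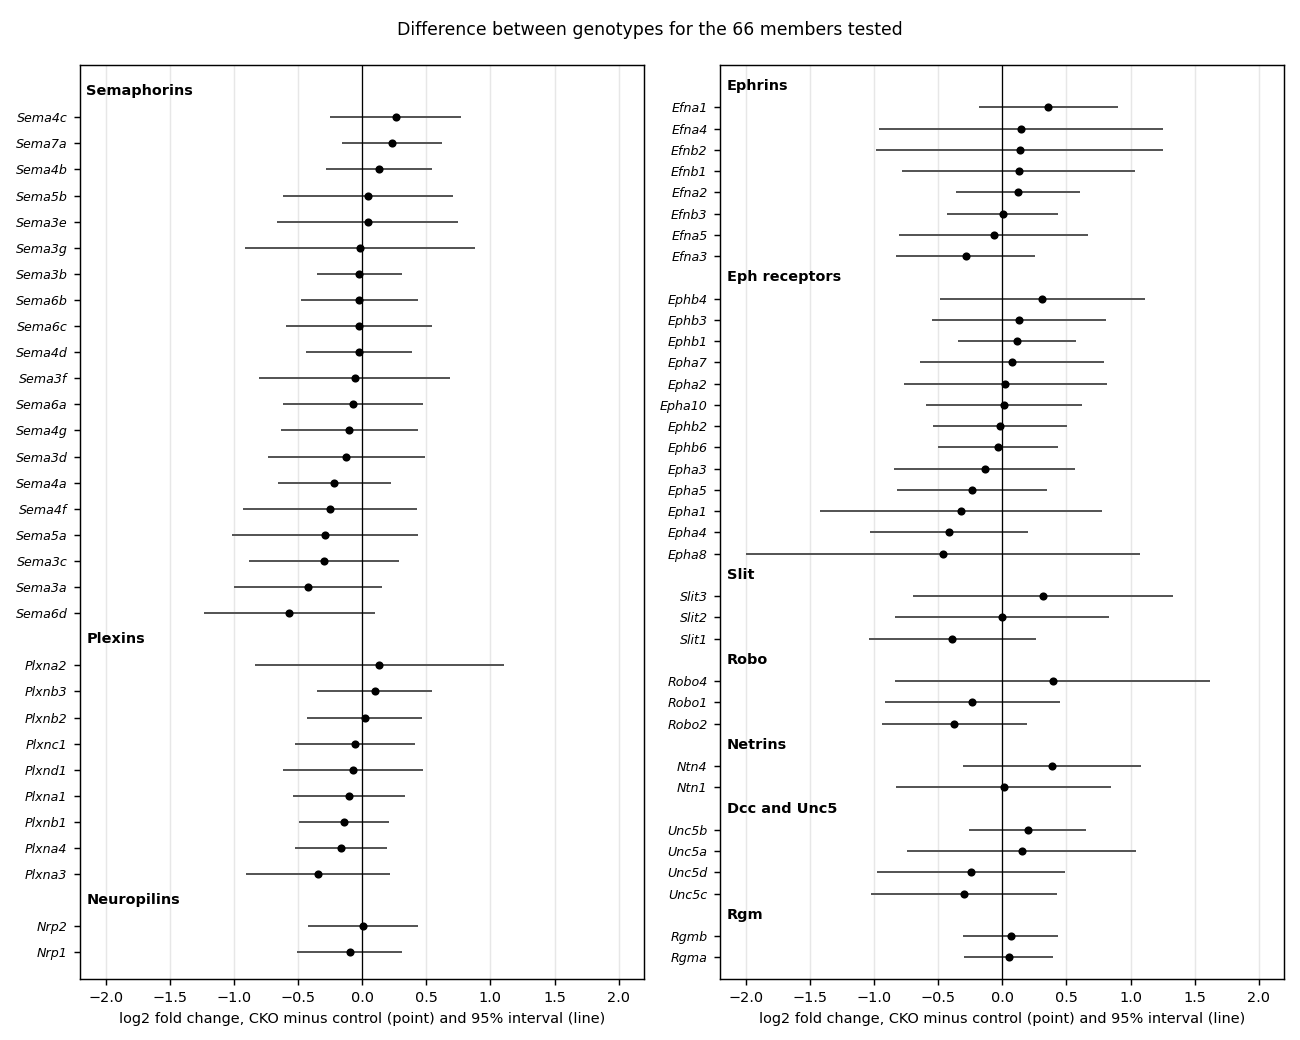
Log2 fold change of CKO against control for the 66 members tested, by family, with points for the estimate and lines for the 95% interval. Every interval crosses 0, from Sema6d at -0.57 to Robo4 at 0.39, and the widest is that of Epha8.

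For Plxnb2, Efnb3 and Sema4d, the most abundant members, the intervals were narrower than the median of the members tested. Not every abundant member had a narrow one: Ntn1, at rank 6 by mean FPKM, had an interval of -0.82 to 0.84. Plxnb2 had a log2 fold change of 0.02 (SE 0.20, 95% interval -0.42 to 0.46), Efnb3 one of 0.00 (SE 0.19, -0.43 to 0.43) and Sema4d one of -0.03 (SE 0.18, -0.43 to 0.38). Rgma had 0.05 (SE 0.15, -0.29 to 0.39) and Rgmb 0.06 (SE 0.16, -0.30 to 0.43). Nrp1 had -0.10 (SE 0.18) and Nrp2 0.01 (SE 0.19). Without libraries control 1, control 2 or CKO 1 in turn the estimate of Plxnb2 was below 0, at -0.03, -0.13 and -0.01.

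By unadjusted p, the member nearest to a lower level in CKO was Sema6d, a transmembrane semaphorin that binds plexin-A1 (chromosome 2, 124089969 to 124667770, plus strand). Its FPKM were 11.9, 5.40, 3.81 and 5.69 in control and 4.88, 4.87, 4.37 and 4.10 in CKO. The CKO values lay close together and inside the control range, whose upper end was the library labelled control 1. The fitted log2 difference was -0.57 (SE 0.30, edgeR unadjusted p = 0.0853, adjusted p = 1.00). Leaving out control 1 gave -0.12, and leaving out control 3 gave -0.76, with an adjusted p = 0.757.

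Sema3a was second, with 1.61, 1.06, 0.705 and 0.837 FPKM in control and 0.852, 0.872, 0.637 and 0.789 FPKM in CKO. Control 1 was again the highest library, and without it the log2 fold change went from -0.43 (SE 0.26) to -0.14. Epha4 had 1.16, 1.55, 1.11 and 0.884 FPKM in control and 0.595, 0.774, 0.815 and 1.35 FPKM in CKO, so 3 of 4 CKO libraries lay below the control range and the library labelled CKO 4 inside it. Its log2 fold change of -0.42 (SE 0.28, edgeR adjusted p = 1.00) was -0.69 without that library and -0.25 without that labelled control 2. Robo2, with -0.37 (SE 0.25), was at 2.38 FPKM in the library labelled control 1 and at 1.01 to 1.28 FPKM in the other 7, and without control 1 its log2 fold change was -0.03. The remaining 4 of the 8 lowest p among members lower in CKO were Plxna3 (log2 fold change -0.35), Slit1 (-0.39), Efna3 (-0.29) and Sema3c (-0.30). With each library left out in turn, Plxna3 ran from -0.49 without control 3 to -0.15 without control 4, and Slit1 from -0.61 without CKO 3 to -0.23 without CKO 4. Efna3 ran from -0.41 without control 1 to -0.10 without control 2, and Sema3c from -0.49 without CKO 4 to -0.15 without control 1. Part of the exons of Efna3 overlap another gene on the opposite strand, so its reads are uncertain.

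On the higher side the smallest p belonged to Efna1, an ephrin-A made by vessels among other cells (chromosome 3, 89271733 to 89281142, minus strand). It had 1.67, 2.58, 2.55 and 1.81 FPKM in control and 3.38, 2.54, 2.61 and 2.56 FPKM in CKO. In CKO 3 libraries stood level with the upper controls and the library labelled CKO 1 stood above all. The fitted log2 difference was 0.36 (SE 0.24, edgeR unadjusted p = 0.166, adjusted p = 1.00). Sema7a had 11.99, 13.8, 10.96 and 15.1 FPKM in control and 18.1, 13.0, 17.6 and 12.5 FPKM in CKO, for which the fitted log2 difference was 0.23 (SE 0.17), with libraries CKO 1 and CKO 3 above the control range and the other CKO libraries within it. Ntn4, a netrin of basement membranes, had a log2 fold change of 0.39 (SE 0.31), Sema4c one of 0.26 (SE 0.23), Unc5b one of 0.20 (SE 0.20), Ephb4 one of 0.31 (SE 0.36), Robo4 one of 0.39 (SE 0.55) and Sema4b one of 0.13 (SE 0.18). None of the 8 reached an unadjusted p of 0.05. With libraries left out in turn, the lowest and highest values of Ntn4 were 0.26 without CKO 4 and 0.69 without control 3, and those of Ephb4 0.06 and 0.72 without the same libraries. Sema4c ran from 0.11 without control 1 to 0.47 without control 4, and Unc5b from 0.08 without CKO 3 to 0.32 without CKO 4. Robo4 ran from 0.02 without control 1 to 0.60 without control 3, and Sema4b from 0.06 without control 2 to 0.21 without control 3.

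Guidance genes also varied between single libraries, within as well as across genotypes. On the log2 CPM scale with a prior count of 2, 40 of the 66 members tested (60.6%) spanned at least 2-fold between the lowest and highest of all 8 libraries, against 46.9% of all genes tested. As plain CPM ratios the count was 41 (62.1%), against 48.0% of all genes. The libraries labelled control 3 and CKO 4 together held the 2 highest values for 11 members (16.7%), where they did so for 8.30% of all genes tested. They held the 2 lowest values for 8 members (12.1%), against 6.20% of all genes, and the libraries labelled control 1 and control 2 also held the 2 lowest values of 8 members, against 9.80% of all genes. Of the 28 pairs of libraries, control 3 and CKO 4 most often held the 2 highest values of a member. Over all genes tested, control 1 and control 2 (10.7%) and control 1 and CKO 4 (8.86%) did so more often. The pattern of control 3 and CKO 4 was noticed after the values were seen and crosses the genotypes, and no test was made of it.

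Netrin 1 showed it plainly. Ntn1 (ENSMUSG00000020902, chromosome 11, 68209364 to 68400823, minus strand) had 4.96, 7.26, 17.6 and 6.77 FPKM in control libraries 1 to 4 and 6.75, 7.88, 7.53 and 14.8 FPKM in CKO libraries 1 to 4. In each group 1 library was thus near or above double the others, and the genotype means were alike, with a log2 fold change of 0.01 (SE 0.38, 95% interval -0.82 to 0.84). Without the library labelled control 3 it was 0.54, and without that labelled CKO 4 it was -0.31.

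The ephrin-B ligands Efnb1 and Efnb2 and the receptor Ephb4, a pair-forming partner of ephrin-B2 that marks veins where ephrin-B2 marks arteries, followed the same libraries. Efnb2 (ENSMUSG00000001300, chromosome 8, 8617434 to 8661242, minus strand) had 2.41, 2.58, 6.95 and 1.72 FPKM in control and 2.23, 2.69, 2.14 and 7.98 FPKM in CKO. The lower of its 2 high libraries was 2.55 times the next library on the CPM scale. Efnb1 (ENSMUSG00000031217, chromosome X, 99136130 to 99148991, plus strand) had 2.64, 3.33, 10.04 and 3.87 FPKM in control and 3.55, 4.31, 5.43 and 8.48 FPKM in CKO. Efnb3, the remaining ephrin-B, did not share this order: the library labelled control 3 held its lowest value and control 1 its highest. Ephb4 (ENSMUSG00000029710, chromosome 5, 137350109 to 137378669, plus strand) had 1.11, 2.18, 4.33 and 2.26 FPKM in control and 2.35, 2.58, 2.79 and 4.60 FPKM in CKO. The 9 endothelial markers did not share this order as a list. Their sum was highest in control 3, at 47.3 FPKM. In CKO 4 it was 41.2 FPKM, inside the CKO range of 40.1 to 45.7 FPKM. Of the 9, only Cdh5 had control 3 and CKO 4 as its 2 highest libraries.

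Plxna2, a plexin that receives semaphorin 6A, had 1.97, 1.28, 3.57 and 1.34 FPKM in control and 1.28, 1.56, 1.58 and 4.58 FPKM in CKO. Plxna4, which receives the same ligand, stayed between 0.980 and 1.33 FPKM in all 8 libraries. Epha8 had 9, 42, 187 and 42 raw counts in control and 39, 38, 24 and 97 counts in CKO, the widest relative range of the Eph receptors. Slit2, Efna4, Epha7, Sema3f and Sema3e completed the 11, and for Sema3e the gap to the next library was only 1.01-fold. The 8 members lowest in the same libraries were Epha10, Sema4f, Unc5b, Unc5c, Plxnb1, Plxnb3, Sema6a and Sema6d, and each gap was at most 1.29-fold.

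**Figure D3:**
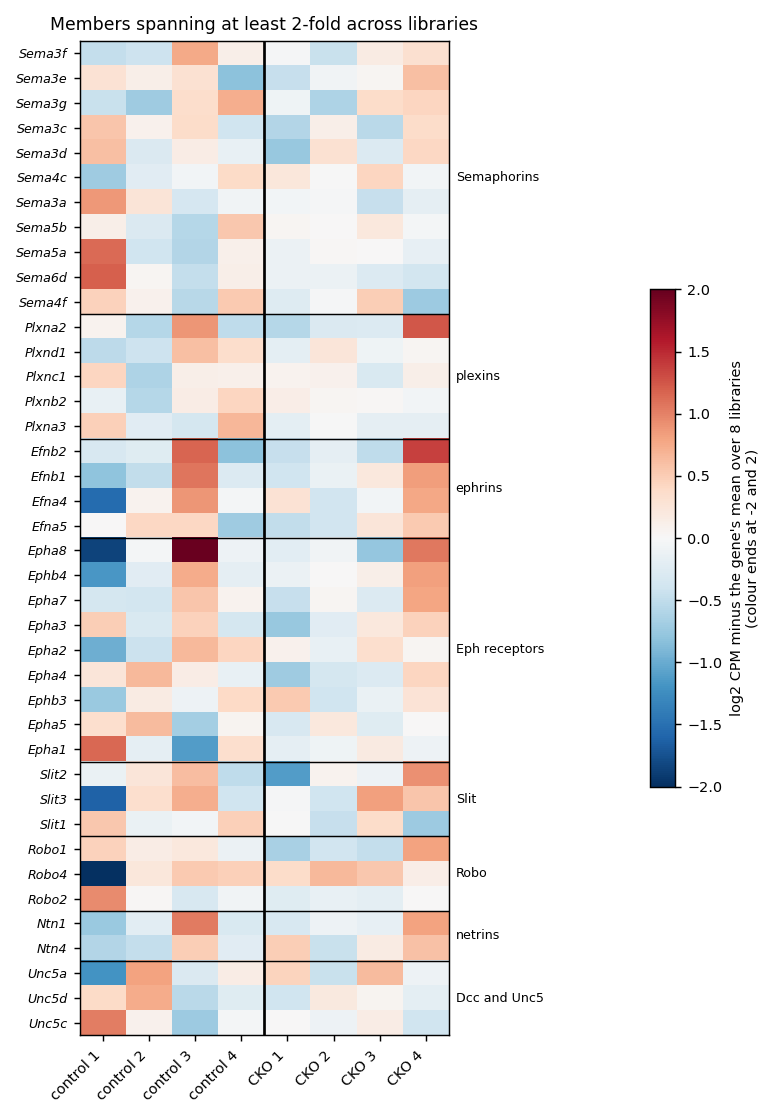
Log2 CPM of each member minus its mean over the 8 libraries, for the 40 of 66 members whose highest and lowest library differ at least 2-fold, in rows by family and in columns by library. The columns of control 3 and CKO 4 share red cells at Plxna2, Efnb2, Efnb1, Epha8, Ephb4 and Ntn1, while control 1 holds the deepest blue cells at Robo4, Epha8 and Slit3.

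Summed markers of some cell types moved with these libraries. The 9 markers of fibroblasts and meninges, all of them tested, summed to 361, 277, 623 and 393 FPKM in control libraries 1 to 4 and to 261, 332, 390.3 and 549.6 FPKM in CKO libraries 1 to 4, so control 3 and CKO 4 were highest. In 6 of the 9 markers (Col3a1, Dcn, Lum, Pdgfrl, Fn1 and Slc6a13) these were the 2 highest libraries, and in Col1a1, Col1a2 and Postn they were not. The matrix gene Dcn had 98.0 and 91.2 FPKM in control 3 and CKO 4 and 30.5 to 58.6 FPKM in the other 6. The 10 oligodendrocyte markers summed to 3531 FPKM in control 3, the lowest value of 3531 to 5996 FPKM in control, and to 5101 FPKM in CKO 4, inside the CKO range of 4945 to 5630 FPKM. Averaged as log2 deviations, which weights each marker equally, the same 10 markers were lowest in control 3 (-0.59) and next lowest in CKO 4 (-0.22). Singly, 5 of the 10 (Mog, Mag, Cnp, Mal and Opalin) had these as their 2 lowest libraries. The summed neuronal markers, 12 of 12 tested, were lowest in both libraries, at 268 and 275 FPKM against 348 to 647 FPKM in the other 6. Only 4 of the 12 (Snap25, Syt1, Stmn2 and Gad1) had these as their 2 lowest libraries. The summed astrocyte markers, 10 of 10 tested, were also lowest in both, at 2304 and 2596 FPKM against 2705 to 3658 FPKM, but only 3 of the 10 (Fgfr3, Sox9 and Gfap) had these as their 2 lowest libraries. As a mean log2 deviation, CKO 2 (-0.12) lay below CKO 4 (-0.08). Markers of oligodendrocyte precursors, 9 of 9 tested, summed to 342 FPKM in control 3 and 407 FPKM in CKO 4. The other 6 libraries had 448 to 538 FPKM. Of the 9, 5 (Gpr17, Olig1, Olig2, Sox10 and Lhfpl3) had control 3 and CKO 4 as their 2 lowest libraries, while Pdgfra had them as its 2 highest. Skeletal muscle markers, 7 of 8 tested, summed to 412 FPKM in control 3 but to 30.8 FPKM in CKO 4. The part of these markers in the guidance genes was not tested, and in bulk tissue fewer cells of a type and less RNA per cell cannot be told apart.

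**Figure D4:**
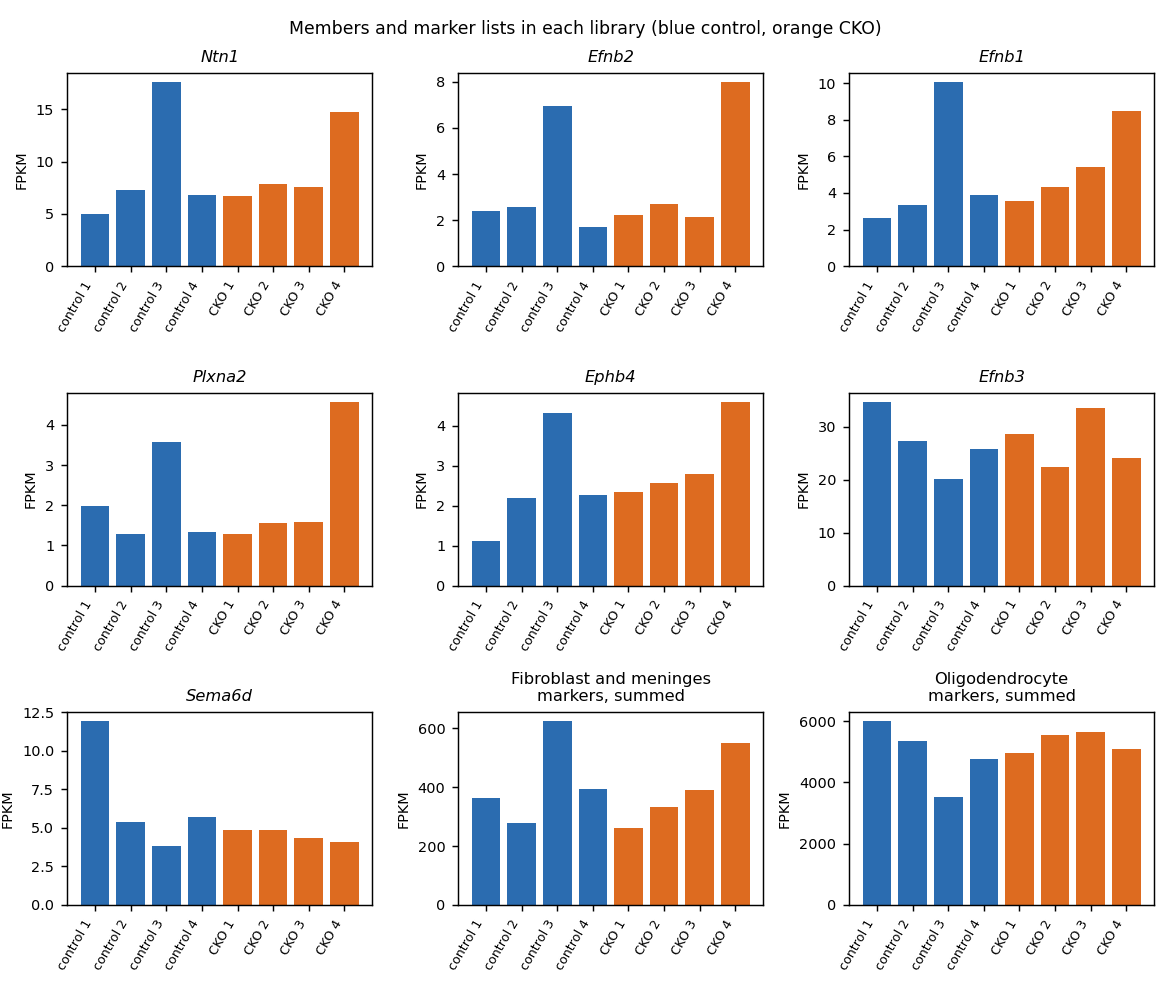
FPKM per library, as bars from 0, for 7 members and for the summed markers of fibroblasts and meninges and of oligodendrocytes, with control in blue and CKO in orange. Ntn1, Efnb2, Efnb1, Plxna2, Ephb4 and the fibroblast markers are highest in control 3 and CKO 4, Efnb3 and the oligodendrocyte markers are lowest in control 3, and Sema6d reaches 11.9 FPKM in control 1.

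Promoters of 4 of the members that were highest in control 3 and CKO 4 are shown because these genes shared their highest libraries. They are RefSeq windows on GRCm38.p6, from 250 bases before to 50 after the annotated start, at chr5:137349859-137350158 (plus strand) for Ephb4, chr8:8661193-8661492 (minus) for Efnb2, chrX:99135811-99136110 (plus) for Efnb1 and chr1:194619579-194619878 (plus) for Plxna2. For Efnb1 and Plxna2 the RefSeq start differs from the gene start listed with the counts. The Efnb1 window ends before its listed start of 99136130. The Plxna2 window begins after its listed start of 194618218, inside the gene. Capitals mark the GC box GGGCGG and the CCAAT box, each on either strand.
Ephb4: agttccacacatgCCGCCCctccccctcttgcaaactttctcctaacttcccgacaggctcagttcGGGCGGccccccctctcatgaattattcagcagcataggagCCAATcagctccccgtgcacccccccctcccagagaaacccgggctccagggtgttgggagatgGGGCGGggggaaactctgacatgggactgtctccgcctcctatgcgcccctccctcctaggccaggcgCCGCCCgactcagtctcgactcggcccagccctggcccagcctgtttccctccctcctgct
Efnb2: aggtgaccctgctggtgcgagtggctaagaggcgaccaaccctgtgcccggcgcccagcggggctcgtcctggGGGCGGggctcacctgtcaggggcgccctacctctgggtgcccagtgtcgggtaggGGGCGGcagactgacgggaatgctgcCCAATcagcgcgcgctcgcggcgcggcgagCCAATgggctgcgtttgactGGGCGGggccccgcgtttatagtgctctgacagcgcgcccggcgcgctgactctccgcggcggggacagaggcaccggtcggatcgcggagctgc
Efnb1: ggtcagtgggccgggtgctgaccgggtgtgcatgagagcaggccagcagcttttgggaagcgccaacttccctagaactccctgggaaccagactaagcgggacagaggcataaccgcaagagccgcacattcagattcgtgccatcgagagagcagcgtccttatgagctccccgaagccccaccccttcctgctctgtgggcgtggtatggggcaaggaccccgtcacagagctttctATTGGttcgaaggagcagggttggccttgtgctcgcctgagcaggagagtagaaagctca
Plxna2: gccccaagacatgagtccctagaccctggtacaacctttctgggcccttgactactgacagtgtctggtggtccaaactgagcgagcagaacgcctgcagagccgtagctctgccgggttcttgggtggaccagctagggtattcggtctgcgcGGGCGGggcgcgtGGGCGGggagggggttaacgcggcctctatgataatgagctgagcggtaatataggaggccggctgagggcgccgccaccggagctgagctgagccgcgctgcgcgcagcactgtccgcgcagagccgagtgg
Ephb4 held 4 GC boxes, Efnb2 held 3, Plxna2 held 2 and Efnb1 held 0, while CCAAT boxes numbered 1, 2, 0 and 1 in these windows. The GC box was present in 35.7% of 32851 promoter windows of the same length and in 70.1% of the 77 windows of guidance genes, which covered 59 of the 70 members. The AP-1 motif TGACTCA, found in 5.20% of all windows and 2.60% of those of members, was in none of the 4. These are matches of letters and show no binding. The 4 windows had 59.7% to 72.3% G and C, and the median was 64.3% over members and 52.7% over all windows.

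The library labelled control 1 differed from the rest in another set of members. Robo4 (chromosome 9, 37401897 to 37415115, plus strand) had 3 raw counts there and 46 to 62 in the other 7, Slit3 had 19 against 50 to 129, and Unc5a had 32 against 59 to 155. In the same library the 9 endothelial markers summed to 24.7 FPKM, the lowest of the 8. The other controls had 28.7 to 47.3 FPKM and CKO had 40.1 to 45.7 FPKM. As a mean log2 deviation the markers were also lowest there (-0.61). Singly the list was mixed: Cldn5, Vwf, Tek and Erg were lowest in control 1, and Pecam1, Cdh5, Kdr, Flt1 and Slco1a4 were not. Sema5a, which binds plexin-B3, had 4.51 FPKM in control 1 and 1.39 to 2.22 FPKM elsewhere, and Unc5c had 0.969 FPKM against 0.293 to 0.533 FPKM. Control 1 held the highest value of 15 members and the lowest of 18, which is 22.7% and 27.3% of the 66 tested, beside 27.5% and 29.4% of all genes tested. For the highest and lowest positions, the members' shares in this library were thus below those of all genes.

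Several members neighbour each other in the genome, and their levels were compared. On chromosome 3, Efna1, Efna3 and Efna4 lie in a row with gaps of 32.8 and 10.4 kb. Their mean levels were 2.46, 2.55 and 1.13 FPKM, and their log2 fold changes were 0.36, -0.29 and 0.15, none of which passed. Robo3 and Robo4 lie 0.554 kb apart on chromosome 9, with 0.025 and 0.533 FPKM. Sema3b and Sema3f, 72.3 kb apart on the same chromosome, had 7.44 and 0.685 FPKM. Ephb2 and Epha8, 93.4 kb apart on chromosome 4, had 0.791 and 0.724 FPKM, but only Epha8 was highest in control 3 and CKO 4.

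Partners of these molecules were read from a list of co-receptors, other guidance cues, transducers and actin regulators. Of 100 listed genes that are not members, 99 were tested. Of these, 34 (34.3%) had a higher and 65 a lower fitted mean in CKO, where 48.1% of all genes tested were higher. Their median log2 fold change was -0.06, beside -0.01 over all genes tested. None passed edgeR's adjusted p of 0.05 or an unadjusted p of 0.05, where 0% and 1.42% of all genes tested did. DESeq2 called 0 of them at its adjusted p. The smallest p were those of Omg, a myelin protein that inhibits axon growth, at 29.3 ± 14.2 FPKM in control and 19.5 ± 4.56 FPKM in CKO (SD, n = 4), of Ptprz1, a phosphatase of glia, at 6.69 ± 3.13 and 4.74 ± 0.737 FPKM, and of Cntn1, a neural adhesion protein, at 29.1 ± 13.8 and 20.9 ± 1.69 FPKM. Among those higher in CKO they were Ssh1, a cofilin phosphatase, with a log2 fold change of 0.23 (SE 0.16), Rgs3, which links ephrin-B to G proteins, with 0.27 (SE 0.24), and Ngfr, the p75 receptor, with 0.53 (SE 0.49). Rtn4, the gene of Nogo, had 73.4 to 125 FPKM across the 8 libraries. Dpysl3, a collapsin response mediator of semaphorin signals, and Flrt2, an Unc5 ligand, were chosen after their values were seen. Dpysl3 had 49.0 FPKM in control 3 and 61.7 FPKM in CKO 4 against 19.8 to 27.0 FPKM in the other 6 libraries, and Flrt2 had 6.48 and 8.86 FPKM against 2.60 to 4.84 FPKM. Dpysl2, its relative, was lowest in the same libraries, at 18.01 and 22.2 FPKM against 23.4 to 38.8 FPKM.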

How the data were processed

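The authors deposited raw whole-number read counts for each gene, without normalization, and FPKM values, for 54532 mouse genes and 8 libraries. Per the submitters' processing notes, the tools were HISAT2 2.0.5 and featureCounts 1.5.0-p3, beside CASAVA 1.8, DESeq2 1.20.0 and fastp, with no roles stated. The notes name a human build, but 69 of the 70 members have the same position in GENCODE M21, on GRCm38. The sources used here do not give the strand setting or annotation release. Over 10% of exon bases overlap another gene, on the opposite strand, in Efna3, Efna4, Ntn5 and Plxna1, whose reads are therefore uncertain. Over 10% of 50-base stretches occur in other genes only in Ntn5. Each deposited FPKM value equals the count over the listed gene length and a scale factor of the library, with relative deviations up to 5.2e-15. Per the labels' protocols, TRIzol was used for the RNA and an NEBNext Ultra RNA kit for the libraries. No 2 libraries agreed within sampling noise.

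Counts were tested with edgeR 4.0.16 in R 4.3.3, with filterByExpr (minimum count 10, minimum total 15), TMM scaling and a robust quasi-likelihood test whose only term was genotype. P-values were adjusted over the 16537 genes tested. The standard error is the log2 fold change over the square root of F. Log2 CPM used a prior count of 2. A member's own spread is the SD of its FPKM. Alternatives used DESeq2 1.42.0 and limma 3.58.1, and the test was tested on simulated data. Limits on counts of 0 cover counting error only, while 95% intervals of fold changes rest on the spread between libraries.

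Members and lists were chosen with earlier results of these data known. Named members were the 8 of smallest p in each direction, the 2 of highest FPKM in each family, members under 10 counts, listed ligand and receptor pairs, and the 3 partner genes of smallest p in each direction. Members singled out by library were chosen after their values were seen, as were Dcn, Rtn4, Dpysl2, Dpysl3 and Flrt2.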

Additional observations from a re-analysis of the deposited data

Results flagged for a closer look

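In groups of 4 libraries, a library was singled out where its gap to the nearest other was above Dixon's 95% critical share of the group's range. For independent, normally distributed values this occurs in about 1 in 20 groups, and 12 of 140 groups showed it. The values were FPKM of genes read in the same libraries, so that rate need not hold. The share over all genes is not given here, so the 12 were not set against it.

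Of the 12, 6 were high values in the libraries labelled control 3 or CKO 4. Efnb2 had 6.95 FPKM in control 3, against 1.72 to 2.58 FPKM in the other controls, and 7.98 FPKM in CKO 4, against 2.14 to 2.69 FPKM. Efnb1 had 10.04 FPKM in control 3, against 2.64 to 3.87 FPKM. In CKO 4, Ntn1 had 14.8 FPKM against 6.75 to 7.88 FPKM, Plxna2 4.58 FPKM against 1.28 to 1.58 FPKM, and Robo1 2.17 FPKM against 0.779 to 0.940 FPKM. The part of the fibroblast and meninges markers, which were also highest in these libraries, was not tested.

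The other 6 were spread over CKO libraries 1 to 3. In CKO 3, Nrp1 was low at 8.08 FPKM, against 10.6 to 10.8 FPKM, Plxnc1 was low at 5.31 FPKM, against 6.95 to 7.17 FPKM, and Rgma was high at 7.10 FPKM, against 6.13 to 6.28 FPKM. In CKO 1, Efna1 was high at 3.38 FPKM, against 2.54 to 2.61 FPKM, and Robo3 stood at 0.0488 FPKM, which is 6 counts against 2 in each of the others. In CKO 2, Plxna3 had 1.00 FPKM, against 0.877 to 0.887 FPKM.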

How the results depend on the processing

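No member and no partner gene passed an adjusted p of 0.05 under any alternative run, and DESeq2 called 1 gene in the whole table. Of 651 alternative log2 fold changes of 31 named members, 587 kept their direction and 64 did not, and 11 members kept it throughout. The 279 alternative mean levels moved by less than 1 SD. The other direction appeared with no low-count filter for Slit2 (0.018), with the filter of 1 CPM in 4 libraries for Efnb3 (-0.00167), with DESeq2 for Slit2 (0.00423), with log2(FPKM + 0.1) for Plxnd1 (0.00457), and with library quality weights for Ntn1 (-0.00508), Plxnb2 (-0.16) and Rgma (-0.12). Added after seeing the data, the fit without control 3 and CKO 4 gave 3 members with an unadjusted p under 0.05 (Sema6d, Epha4, Robo1) and 6 with no overlap of groups, of 67 tested, against 4.26% and 9.94% of all genes in that fit, and Ephb6 0.00478, Efnb3 -0.057, Nrp1 0.022, Plxnd1 0.14 and Rgmb -0.047. The added fit without control 1 and control 2 gave 3 (Nrp1, Plxna1, Plxnd1) and 5 of 67, against 2.08% and 10.3% of all genes, and Sema4c -0.021, Ephb4 -0.10, Robo4 -0.074, Sema4b -0.028, Sema3a 0.026, Robo2 0.039, Sema4d 0.012, Efnb1 -0.36, Ntn1 -0.40, Nrp2 -0.23, Plxnb2 -0.27 and Rgma -0.087. With each library left out in turn, 0 to 5 members had an unadjusted p under 0.05 (5 without control 3, 2 without CKO 4) and 0 to 3 had groups that did not overlap, where 1.16% to 6.56% and 2.44% to 6.66% of all genes did. Over the same fits the log2 fold change ran from -0.13 to 0.091 for Sema4d, -0.10 to 0.54 for Unc5a, -0.17 to 0.090 for Ephb6, -0.027 to 0.22 for Ephb1, -0.11 to 0.15 for Efnb3, -0.17 to 0.72 for Efnb1, -0.31 to 0.54 for Ntn1, -0.20 to 0.050 for Nrp1, -0.087 to 0.18 for Nrp2, -0.13 to 0.20 for Plxnb2, -0.23 to 0.15 for Plxnd1, -0.073 to 0.15 for Rgmb, -0.020 to 0.18 for Rgma and -0.42 to 0.26 for Slit2. The cause of these changes was not tested. With the replicate block, 0 members passed at either threshold, where 0.847% of all genes had an unadjusted p under 0.05. Sema6d had -0.43 in that fit. Same-numbered libraries correlated at -0.33 to 0.05 and 0 of 4 control libraries correlated best with its own number, so the numbers were not taken as pairs. Overlap of groups has no separate value under the block, the non-robust fit, DESeq2 or limma-voom. Depth limited Dcc, Epha6, Ntn5 and Robo3, which had 18 counts or fewer in each library.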
